A study of Danio rerio with 12 samples.

Results

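In all, 10 genes of transforming growth factor beta (TGF-beta) signalling were followed in zebrafish (Danio rerio) melanomas. They are the ligand genes tgfb1a, tgfb2 and tgfb3, the receptor genes tgfbr1a, tgfbr1b, tgfbr2 and tgfbr3, and the Smad genes smad2, smad3a and smad7. All 10 were found by symbol among the 27827 genes of the count table. The list was built around tgfbr1a, which was chosen by its log2 fold change and adjusted p between the 2 groups of melanomas, so the difference between the groups is given for all 10 as a description and not as a test.

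The samples were 6 melanomas of the genotype MiniCoopR-MyrRSK (the MyrRSK group) and 6 of the genotype MiniCoopR-GFP (the GFP group). MiniCoopR is a transgenesis vector that returns mitfa, the master regulator of melanocytes, to fish that lack it, along with a chosen gene. The chosen gene was MyrRSK, a version of RSK (ribosomal S6 kinase), or the fluorescent protein GFP as the control, so both groups carry the mitfa vector. The labels name no other allele, age or sex of the fish and no species or paralog for the RSK transgene, nor do they tie each tumour to a fish of its own. The p-values therefore measure the spread between these 12 tumours.

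TGF-beta ligands are secreted in a latent form and, once released, bring together a type II and a type I receptor kinase on the cell surface. The type I receptor then phosphorylates Smad2 and Smad3, which join Smad4 and move to the nucleus to control transcription, while Smad7 is induced by the pathway and dampens it. In melanocytes TGF-beta is known to slow proliferation, and in melanoma it is known for its links to invasion and to the tumour stroma.

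The polyA RNA libraries held 61750434 to 72257237 gene counts each. Any of the 10 genes had between 125 and 6730 counts in a library, so the spread between tumours and not counting error set the precision, and all 10 passed the filter on low counts. Melanocyte regulators were present in every library: mitfa stood at 163 to 490 CPM (CPM are counts scaled to a common library size) and sox10 at 200 to 604 CPM. Both groups carry mitfa on the vector, so its counts do not by themselves show melanocyte content. The pigment genes dct and pmela ranged more widely over the 12 libraries, at 37.2 to 1361 and 430 to 22460 CPM. Because whole tumours were sequenced, fewer cells of a type and less RNA per cell cannot be told apart. CPM values are not divided by gene length, so levels are compared between groups and not between genes.

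Both type I receptor genes had lower counts in MyrRSK melanomas, with no overlap between the groups, whereas the ligands, the other receptors and the Smads among the 10 overlapped. Of the 10 genes, 8 had a negative and 2 a positive log2 fold change (MyrRSK over GFP), with a median of -0.45, against -0.07 over all 26866 genes tested. Of the 8 negative signs, 3 turned with libraries left out: tgfb1a to 0.10 and tgfb2 to 0.18 without GFP 1, and tgfbr3 to 0.03 without GFP 5. The edgeR quasi-likelihood test over all genes (Benjamini-Hochberg adjusted p under 0.05) called 1 of the 10 lower, tgfbr1a, where it called 0.115% of all genes lower. It called 0 of the 10 higher, where it called 0.29% of all genes. At an unadjusted p under 0.05, 2 of the 10 were lower (8.33% of all genes) and 2 higher (7.18%). For 2 of the 10 every MyrRSK library lay below every GFP library, as it did for 0.722% of all genes, and for 0 of the 10 every MyrRSK library lay above, against 1.01% of all genes. The choice of tgfbr1a used this comparison, so nothing is read from these counts.

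**Figure D1:**
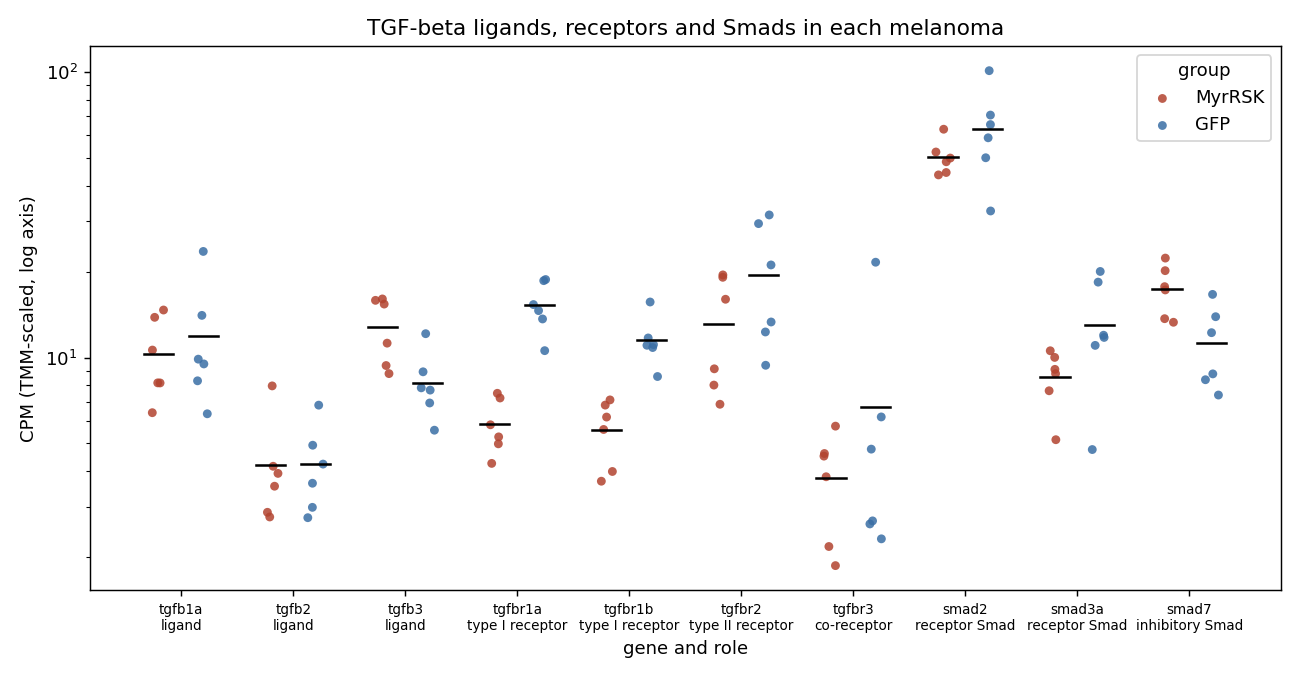
CPM (log axis) of the 10 genes in each library, MyrRSK in red to the left of GFP in blue, with black lines at the group means (n = 6 each). For tgfbr1a and tgfbr1b all 6 MyrRSK points lie below all 6 GFP points, and for each of the other genes the groups overlap.

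The 3 ligand genes did not share a pattern. The gene tgfb3 (ENSDARG00000019367, chromosome 17, 52587615 to 52620507, Zv9), a TGF-beta ligand, had a lowest, median and highest value of 8.78, 13.3 and 16.0 CPM in MyrRSK melanomas, against 5.57, 7.76 and 12.1 CPM in GFP melanomas. Its mean was 12.8 ± 3.37 CPM in MyrRSK and 8.18 ± 2.23 CPM in GFP melanomas (SD, n = 6 each), a log2 fold change of 0.64 ± 0.24 (SE). In 3 MyrRSK libraries tgfb3 lay above every GFP library, and the other MyrRSK libraries lay among the GFP values.

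The ligand gene tgfb1a (ENSDARG00000041502, chromosome 15, 2771166 to 2795128) had a lowest, median and highest value of 6.41, 9.38 and 14.7 CPM in MyrRSK melanomas, against 6.35, 9.68 and 23.5 CPM in GFP melanomas. Its log2 fold change was -0.21 ± 0.33 (SE), smaller than its error, and GFP 1 alone lay above the MyrRSK range. Without GFP 1 it was 0.10, and without GFP 1 and GFP 2 it was 0.11. For tgfb2 (ENSDARG00000027087, chromosome 16, 3344351 to 3411485), the remaining ligand of the list, the values were 2.76, 3.73 and 7.96 CPM in MyrRSK melanomas and 2.75, 3.93 and 6.81 CPM in GFP melanomas. The tgfb2 groups covered almost the same range, with MyrRSK 2 the highest library of all 12, and the log2 fold change was -0.01 ± 0.32 (SE). It was positive in 7 of 22 alternative fits, at 0.01 to 0.18.

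Zebrafish have a pair of genes for the type I TGF-beta receptor, the kinase that phosphorylates Smad2 and Smad3. In tgfbr1a (ENSDARG00000017494, chromosome 2, 23932610 to 24008101) the lowest, median and highest value were 4.26, 5.54 and 7.49 CPM in MyrRSK melanomas, against 10.6, 15.0 and 18.8 CPM in GFP melanomas. The highest MyrRSK library thus lay under the lowest GFP library, GFP 2. The mean was 5.84 ± 1.28 CPM in MyrRSK and 15.3 ± 3.11 CPM in GFP melanomas (SD, n = 6 each), with a log2 fold change of -1.38 ± 0.22 (SE), a difference of -61.7%.

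Its paralog tgfbr1b (ENSDARG00000042259, chromosome 24, 450049 to 480816) had a lowest, median and highest value of 3.69, 5.89 and 7.11 CPM in MyrRSK melanomas, against 8.58, 11.1 and 15.7 CPM in GFP melanomas. Here too the groups did not overlap, and the lowest GFP library was GFP 1. The mean was 5.56 ± 1.44 CPM in MyrRSK and 11.5 ± 2.31 CPM in GFP melanomas (SD, n = 6 each), with a log2 fold change of -1.05 ± 0.23 (SE), a difference of -51.5%.

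The adjusted p that places tgfbr1a among the called genes was 0.0241 with edgeR, and that of tgfbr1b, which was not called, was 0.0672. By p these genes ranked 22 and 222 of 26866. DESeq2 placed both under 0.05, where it called 2.92% of genes lower, and called 0 of the 10 higher, against 3.05% of genes. Here and below, DESeq2 shares of all genes are over the 26003 genes to which it gave an adjusted p. Counts within lists are out of all tested genes of the list, some of which had no DESeq2 adjusted p. The authors' deposited table, made from the same 12 libraries, places both under 0.05. It lists log2 fold changes of -1.29 for tgfbr1a and -0.97 for tgfbr1b. The DESeq2 fit made here gave -1.39 and -1.05, and the reason for the smaller deposited values was not tested. Of the 23526 genes with an adjusted p in the deposited table, the base of its shares throughout, 2.29% were lower at that threshold. Because the choice of tgfbr1a used this comparison, its rank and its calls with other tools are no independent evidence. The edgeR call of tgfbr1a was lost in 5 of 22 alternative fits, among them those without GFP 2, MyrRSK 1 or MyrRSK 4 (edgeR adjusted p = 0.0537, 0.0528 and 0.0541), with log2 fold changes of -1.47, -1.31 and -1.38. The call was also lost with the skeletal muscle markers as a covariate (log2 fold change -1.44, edgeR adjusted p = 0.205), a fit that called 1 gene of all.

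**Figure D2:**
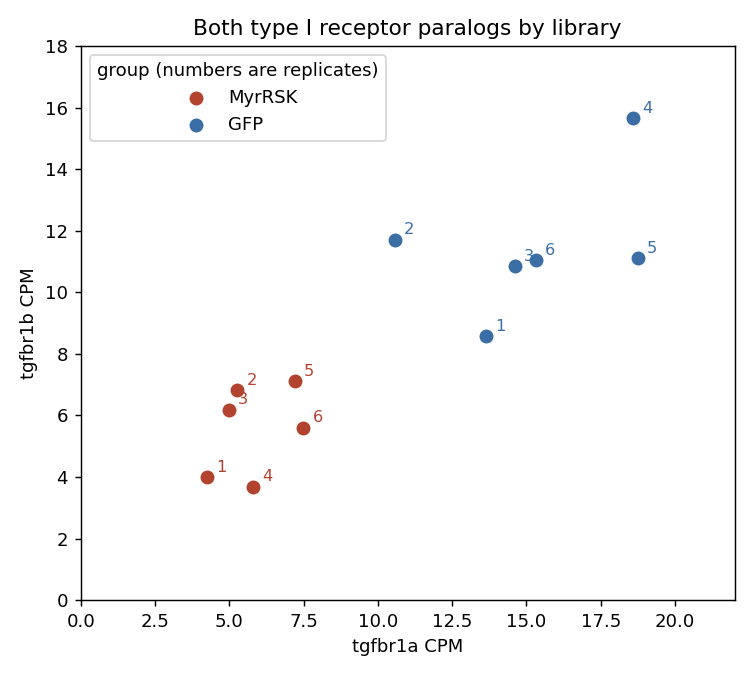
CPM of tgfbr1a (x axis) against tgfbr1b (y axis), 1 point for each library, numbered by replicate, MyrRSK in red and GFP in blue. The 6 MyrRSK libraries lie at 4.26 to 7.49 CPM of tgfbr1a and 3.69 to 7.11 CPM of tgfbr1b, apart from the 6 GFP libraries on both axes.

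Counts of the paralogs were set against each other within each library, which removes library scaling and gene length from the comparison of groups. The log2 ratio of tgfbr1a to tgfbr1b counts averaged 0.09 ± 0.40 in MyrRSK and 0.40 ± 0.33 in GFP melanomas (SD, n = 6 each), a difference of -0.32 ± 0.21 (SE). The ratio ran from -0.37 in MyrRSK 2 to 0.65 in MyrRSK 4, and from -0.15 in GFP 2 to 0.76 in GFP 5, so the groups overlapped. As a share of the counts of both genes, tgfbr1a made up 51.5 ± 6.89% in MyrRSK and 56.9 ± 5.54% in GFP melanomas.

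Summed, the paralogs reached 11.4 ± 2.26 CPM in MyrRSK and 26.7 ± 4.65 CPM in GFP melanomas (SD, n = 6 each), which is 42.6% of the GFP mean. The sum ran from 8.25 to 14.3 CPM across MyrRSK libraries and from 22.2 to 34.2 CPM across GFP libraries. How reads that match both paralogs were counted is not given in the sources used here. The effect of such reads on the split between the paralogs and on their sum was not tested.

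The type II receptor gene tgfbr2 (ENSDARG00000034541, chromosome 16, 42171681 to 42272179), whose product binds the ligand and activates the type I receptor, had a lowest, median and highest value of 6.86, 12.6 and 19.5 CPM in MyrRSK melanomas, against 9.39, 17.2 and 31.6 CPM in GFP melanomas. In 3 MyrRSK libraries tgfbr2 lay below every GFP library, while GFP 1, GFP 2 and GFP 3 lay above every MyrRSK library. The log2 fold change was -0.58 ± 0.37 (SE), and without GFP 1 and GFP 2 it was -0.10.

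The co-receptor gene tgfbr3 (ENSDARG00000078670, chromosome 6, 20611204 to 20811049) encodes betaglycan, which presents ligand to the type II receptor. Its lowest, median and highest value were 1.87, 4.17 and 5.75 CPM in MyrRSK melanomas, against 2.32, 3.73 and 21.6 CPM in GFP melanomas. The GFP 5 library stood far above the rest, and the log2 fold change of -0.82 ± 0.55 (SE) was 0.03 without it.

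Among the Smads, smad2 (ENSDARG00000006389, chromosome 10, 14899576 to 14971855), a receptor-activated Smad, had a lowest, median and highest value of 43.6, 49.2 and 63.0 CPM in MyrRSK melanomas, against 32.6, 62.1 and 101 CPM in GFP melanomas. The MyrRSK libraries all lay inside the GFP range, and the log2 fold change was -0.33 ± 0.23 (SE). The span of smad2 overlaps that of si:dkey-88l16.2, a gene with a median of 10 counts, and no other of the 10 genes overlaps a gene of the table.

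The other receptor-activated Smad, smad3a (ENSDARG00000036096, chromosome 7, 35450190 to 35493955), had values of 5.15, 8.94 and 10.6 CPM in MyrRSK melanomas, against 4.76, 11.9 and 20.0 CPM in GFP melanomas. GFP 3 was the lowest library of all 12, the other GFP libraries lay above every MyrRSK library, and the log2 fold change was -0.60 ± 0.31 (SE).

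The inhibitory Smad gene smad7 (ENSDARG00000016858, chromosome 21, 3658167 to 3689369) had a lowest, median and highest value of 13.3, 17.5 and 22.3 CPM in MyrRSK melanomas, against 7.39, 10.5 and 16.6 CPM in GFP melanomas. In 4 MyrRSK libraries it lay above every GFP library. The mean was 17.4 ± 3.53 CPM in MyrRSK and 11.2 ± 3.65 CPM in GFP melanomas (SD, n = 6 each), a log2 fold change of 0.63 ± 0.24 (SE) that was 0.34 once the mean of the skeletal muscle markers entered the fit as a covariate.

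In which group varied more, the 10 genes were near all tested genes. The coefficient of variation was higher in GFP than in MyrRSK melanomas for 7 of the 10 genes, as it was for 67.9% of all genes tested. It was 39.7% in MyrRSK and 111% in GFP melanomas for tgfbr3, where the GFP value was 45.7% without GFP 5. It was 14.0% in MyrRSK and 36.3% in GFP melanomas for smad2. For tgfbr1a it was similar, at 21.9% in MyrRSK and 20.4% in GFP melanomas. On the genome, tgfb2 and tgfbr2 lie on chromosome 16, far apart, and the other genes each lie on a chromosome of their own.

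Around these 10 genes, 159 other genes of the pathway and its relatives were tested in 7 lists by role. With edgeR 1 of them rose, LDLRAD4 (2 of 2), and 1 fell, bambib, which is 1.26% of the 159, against 0.406% of all genes in either direction. Before adjustment 14 were higher and 18 lower at p under 0.05, 20.1% against 15.5% of all genes, and their median log2 fold change was 0.00. DESeq2 called 7 of the 159 higher and 13 lower (3.05% and 2.92% of all genes), and 7 are higher and 8 lower in the authors' deposited table (2.88% and 2.29% of its genes).

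The gene bambib (ENSDARG00000056406, chromosome 2, 3091038 to 3098818) encodes a pseudoreceptor that lacks the kinase domain and damps TGF-beta and BMP signals. Its lowest, median and highest value were 8.11, 9.02 and 14.3 CPM in MyrRSK melanomas, against 15.7, 21.6 and 31.8 CPM in GFP melanomas. No MyrRSK library reached the lowest GFP library, which held for 0.722% of all genes. The gene fell by 1.23 ± 0.22 (SE) on the log2 scale (edgeR adjusted p = 0.0377). Of 22 alternative fits 9 kept the call, with log2 fold changes from -1.41 to -1.12 over all fits. Leaving out any single library other than GFP 4 or GFP 6 ended it. The other copy, bambia, had a log2 fold change of 0.03 ± 0.76 (SE).

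LDLRAD4 (2 of 2) (ENSDARG00000070555, chromosome 19, 13067069 to 13246405) is a copy of a gene whose human product restrains TGF-beta signalling at the Smad2 and Smad3 step. Its lowest, median and highest value were 43.7, 58.9 and 99.4 CPM in MyrRSK melanomas, against 18.3, 28.0 and 34.8 CPM in GFP melanomas. Each of the 6 MyrRSK libraries exceeded the highest GFP library, which held for 1.01% of all genes. The gene rose by 1.24 ± 0.23 (SE) on the log2 scale (edgeR adjusted p = 0.0381). Of 22 alternative fits 8 kept the call, with log2 fold changes from 1.004, with the muscle covariate, to 1.33 over all fits. Leaving out any single library other than GFP 1 or GFP 6 ended it. The other copy, LDLRAD4 (1 of 2), had a log2 fold change of 0.26 ± 0.26 (SE).

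**Figure D3:**
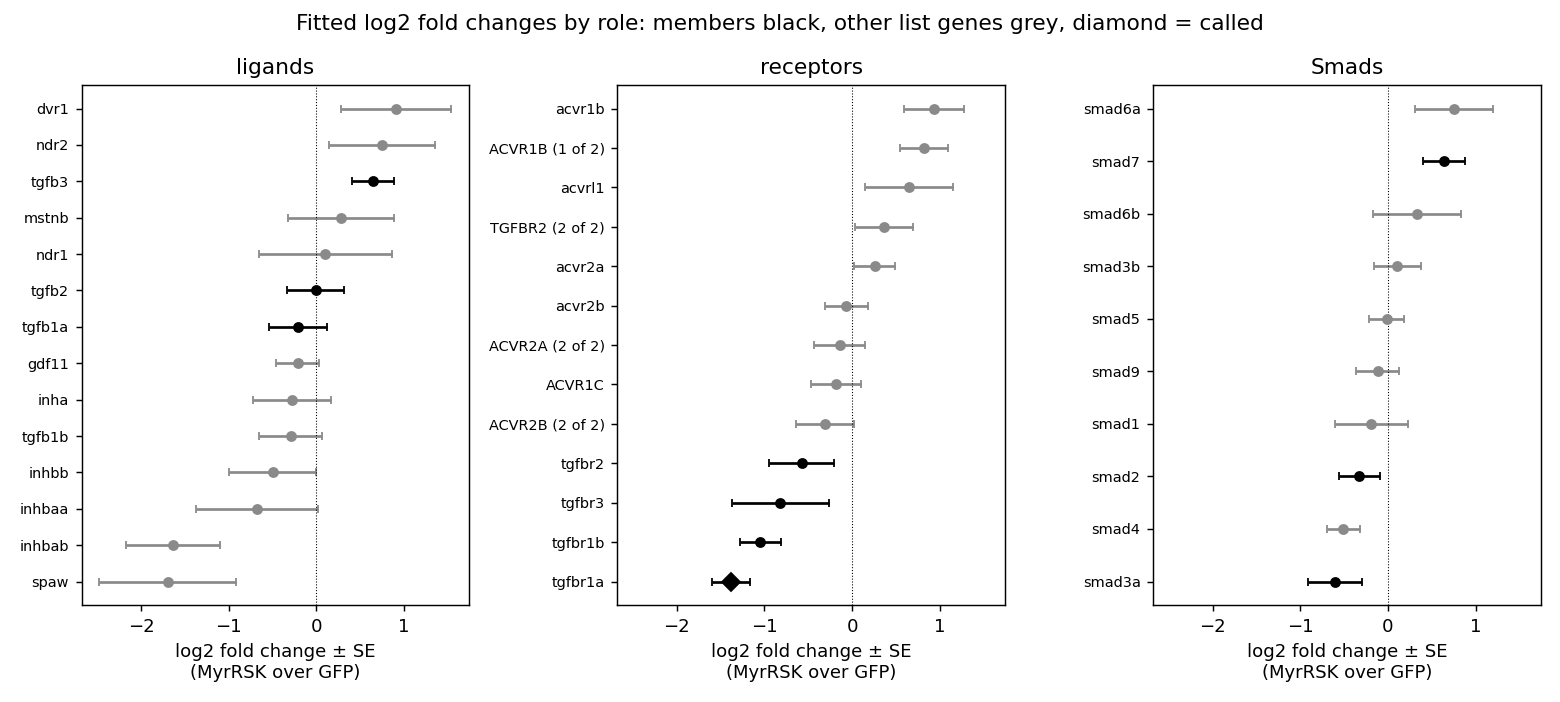
Log2 fold changes (MyrRSK over GFP, x axis) with their SE for the tested genes of the ligand, receptor and Smad lists, 1 gene for each row. The 10 genes described are black, the others grey, and a diamond marks an edgeR adjusted p under 0.05, which tgfbr1a alone has here; acvr1b and tgfbr1a lie at the top and the bottom of the receptor panel.

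The receptor list held 9 further genes, for activin receptors, their relatives and a second tgfbr2 gene. With edgeR 0 of the 9 passed, with DESeq2 0, and before adjustment 2 were higher and 0 lower at p under 0.05, where 7.18% and 8.33% of all genes were. Those 2 are activin type I receptor genes, acvr1b (0.93 ± 0.34) and ACVR1B (1 of 2) (0.82 ± 0.27), both chosen after their values were seen. The mean of acvr1b was 86.2 ± 38.9 CPM in MyrRSK and 45.1 ± 16.6 CPM in GFP melanomas (SD, n = 6 each; edgeR adjusted p = 0.211). The second tgfbr2 gene, TGFBR2 (2 of 2), had a log2 fold change of 0.36 ± 0.33, and the median of the 9 was 0.26.

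Of the 7 other Smad genes found by symbol 0 passed with edgeR, and DESeq2 called 1 lower, where it called 2.92% of all genes lower, and 0 higher. Before adjustment 1 was lower at p under 0.05, against 8.33% of all genes, and 0 were higher. Both counts of 1 are smad4, the partner that receptor-activated Smads join, chosen after its values were seen. It averaged 8.72 ± 0.94 CPM in MyrRSK and 12.4 ± 2.39 CPM in GFP melanomas (SD, n = 6 each), with a log2 fold change of -0.51 ± 0.19 (edgeR adjusted p = 0.212). The highest MyrRSK library (10.16 CPM) lay barely under the lowest GFP library (10.19 CPM). For 0.722% of all genes every MyrRSK library lay below every GFP library. The paralog of smad3a, smad3b, had a log2 fold change of 0.11 ± 0.27. The inhibitory Smads smad6a and smad6b stood at 0.75 ± 0.44 and 0.33 ± 0.50, and smad1, smad5 and smad9, which carry BMP signals, at -0.19 ± 0.42, -0.01 ± 0.20 and -0.12 ± 0.25. Without GFP 3 the value of smad1 was 0.24. A further 4 Smad entries matched only by current gene name and are not among the 7.

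In the ligand list 0 of 11 further genes passed with edgeR, and before adjustment 0 were higher and 2 lower at p under 0.05 (7.18% and 8.33% of all genes), while DESeq2 called 0 higher and 1 lower (3.05% and 2.92% of all genes). The other copy of the first ligand, tgfb1b, had a log2 fold change of -0.29 ± 0.36. Among 30 genes that store or activate latent ligand, 0 passed with edgeR, and before adjustment 5 were higher and 5 lower at p under 0.05, against 7.18% and 8.33% of all genes. DESeq2 called 4 of the 30 higher and 3 lower, against 3.05% and 2.92% of all genes. Both higher counts, the 5 and the 4, include FBN1 and fbn1, picked after their values were seen. These entries lie close together on chromosome 18 (4745331 to 4769470 and 4739542 to 4742405). Whether they are parts of the same gene was not tested. The members with the highest mean counts were emilin1b (0.52 ± 0.46), of a matrix protein family that restrains ligand maturation in mice, and itgav (0.51 ± 0.25), the alpha V integrin subunit that releases latent ligand.

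The list of inhibitors and cofactors held both calls given above among its 31 tested genes, and before adjustment 3 were higher and 6 lower at p under 0.05 (7.18% and 8.33% of all genes). DESeq2 called 1 of the 31 higher and 5 lower, against 3.05% and 2.92% of all genes. Of 52 tested target genes, a list that holds bambib and smad7, edgeR called 1 lower and 0 higher (0.115% and 0.29% of all genes). DESeq2 called 2 of the 52 higher and 1 lower, against 3.05% and 2.92% of all genes. Before adjustment 5 of the 52 were higher and 2 lower at p under 0.05, against 7.18% and 8.33% of all genes. Their median log2 fold change was 0.22, against -0.07 over all genes, and 33 were positive and 19 negative. The share of positive signs over all genes was not counted. Medians of the other lists, the 10 genes included where listed, were -0.21 for ligands, -0.14 for receptors and -0.07 for Smads. They were -0.15 for inhibitors and cofactors, -0.23 for ligand storage and activation, and 0.03 for BMP ligands and receptors. Among 27 BMP ligands and receptors, the sister pathway, 0 passed with edgeR, and before adjustment 0 were higher and 3 lower at p under 0.05, against 7.18% and 8.33% of all genes. DESeq2 called 0 of the 27 higher and 3 lower, against 3.05% and 2.92% of all genes. The members with the highest mean log2 CPM were the ligand gene gdf6a (0.60 ± 0.81) and the type I receptor gene acvr1l (0.03 ± 0.22).

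The covariation of the genes between tumours of the same group was not used in the choice, although the spread of tgfbr1a itself entered its adjusted p. Deviations of log2 CPM from the group means were correlated over the 12 libraries for all 45 pairs of the 10 genes, with exact permutation within groups. Pearson's r ran from -0.78 to 0.85 with a median of 0.09, and 29 pairs were positive. By r 0 pairs passed after Benjamini-Hochberg adjustment over the 45 pairs, and 5 were under 0.05 before it.

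The strongest r joined the ligands tgfb1a and tgfb3 (r = 0.85, rho = 0.85, exact p = 0.00187 and 0.00273, adjusted p = 0.0841 and 0.0614). Without GFP 1 and MyrRSK 3, the libraries farthest from the median of tgfb1a, r was 0.72. Next came the ligand tgfb3 with the receptor tgfbr2 (r = 0.79, rho = 0.80, exact p = 0.00781 and 0.00477, adjusted p = 0.134 and 0.0674), with r = 0.68 without GFP 1 and GFP 4. The lowest r was that of tgfb1a with smad2 (r = -0.78, rho = -0.76, exact p = 0.00893 and 0.00872, adjusted p = 0.134 and 0.0785). That r was -0.54 without GFP 1 and MyrRSK 3.

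By rank, 1 of the 45 pairs passed, tgfbr1b with smad3a (rho = 0.85, exact p = 0.000804, adjusted p = 0.0362), for which r was 0.54 (exact p = 0.0533, adjusted p = 0.314) and 0.49 without GFP 4 and MyrRSK 4. The inhibitory smad7 had a negative r with smad3a (r = -0.67, rho = -0.66, exact p = 0.0305 and 0.0383, adjusted p = 0.314 and 0.192), with r = -0.60 without GFP 3 and MyrRSK 1. Without GFP 3, 3 pairs passed by r.

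**Figure D4:**
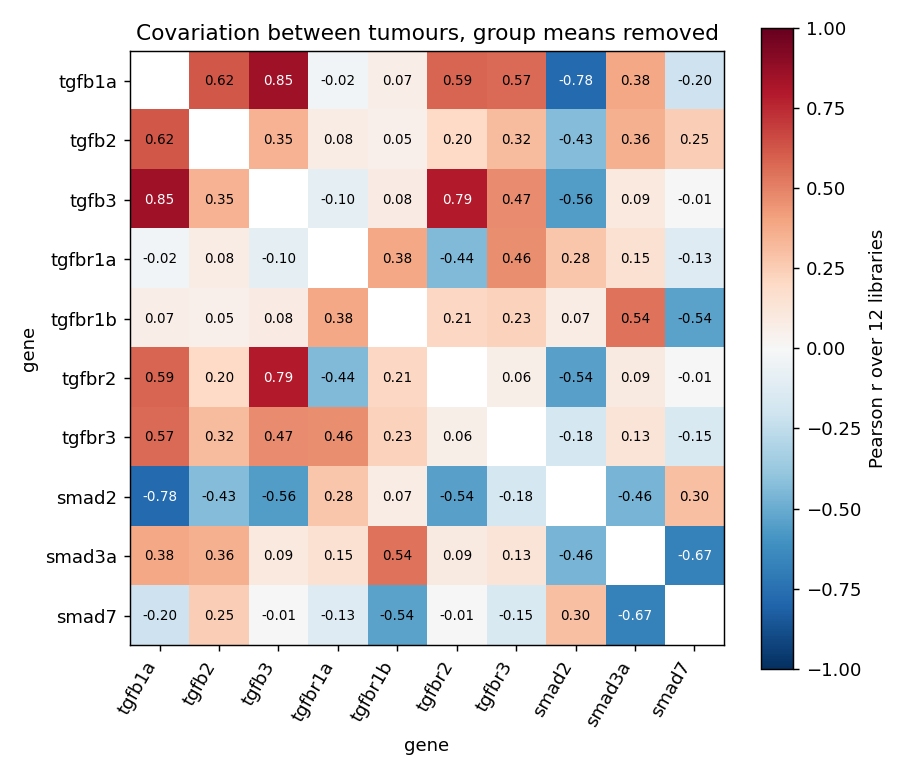
Pearson r between the 10 genes over 12 libraries after the group means were removed from log2 CPM (red positive, blue negative). The ligand tgfb1a has its strongest values with tgfb3 (0.85) and smad2 (-0.78), and tgfbr1a with tgfbr1b has 0.38.

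Although the type I receptor paralogs differed between the groups in the same direction, their covariation among tumours of a group did not pass (r = 0.38, rho = 0.34, exact p = 0.241 and 0.317, adjusted p = 0.643 and 0.649; r = 0.33 without GFP 2 and MyrRSK 1). Ranked by r over 16572 other genes with a mean normalized count of at least 50, tgfbr1b stood at place 2921 for tgfbr1a, and tgfbr1a at place 1872 for tgfbr1b. The genes most like tgfbr1a by r over the 12 libraries were btd (0.92), FSCB (0.92), eps8l3 (0.90), slc35a5 (0.90) and ypel5 (0.88). Those most like tgfbr1b were bicc1b (0.94), MAP4 (1 of 3) (0.92), PTPRH (2 of 2) (0.87), ptprh (0.87) and ankhd1 (0.82). With 12 libraries and this many genes ranked, high values at the top are a description of these tumours.

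Markers of cell types, melanocytes included, were set beside the 10 genes in the same way, as the mean log2 CPM of 8 marker lists. This gave 80 relations. With 18 melanocyte markers, r was 0.08 for tgfbr1a and -0.13 for tgfbr1b (rho = -0.04 and -0.21). By r 0 passed after adjustment over the 80, 14 were under 0.05 before it, and the smallest adjusted p was 0.135. That was tgfb3 with 18 keratinocyte markers (r = 0.82, rho = 0.76, exact p = 0.00168 and 0.00651, adjusted p = 0.135 and 0.169), with r = 0.66 without GFP 1 and MyrRSK 1. Next by r came tgfb1a with the same keratinocyte markers (r = 0.80, rho = 0.75, exact p = 0.00373 and 0.00911, adjusted p = 0.149 and 0.169), with r = 0.58 without GFP 1 and MyrRSK 1. The receptor tgfbr2 with 15 endothelial markers did not pass either (r = 0.76, rho = 0.61, exact p = 0.00825 and 0.0545, adjusted p = 0.166 and 0.291), with r = 0.64 without GFP 1 and MyrRSK 2. With fibroblast, macrophage and neutrophil, and keratinocyte markers, tgfbr2 had r of 0.73, 0.70 and 0.67 and rho of 0.75, 0.75 and 0.72. For tgfbr1a the strongest r of the 8 lists was with 30 macrophage and neutrophil markers, 13 of them copies of MFAP4 (r = -0.63, rho = -0.57, exact p = 0.0358 and 0.0598, adjusted p = 0.204 and 0.299), and r was -0.62 without GFP 1 and MyrRSK 3.

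Skeletal muscle markers moved with the groups. Of 32 tested, edgeR called 3 higher and 0 lower in MyrRSK melanomas, where it called 0.29% and 0.115% of all genes. Before adjustment 21 were higher and 1 lower at p under 0.05 (7.18% and 8.33% of all genes), and DESeq2 called 18 higher and 0 lower (3.05% and 2.92% of all genes). Their median log2 fold change was 2.25, and their summed level ran from 242 to 1399 CPM in MyrRSK and from 111 to 1247 CPM in GFP melanomas. None of the 32 was at 0 in every library, which the filter on low counts ensures. The mean log2 CPM of the list ran from -0.62 to 3.02 in MyrRSK and from -0.94 to -0.05 in GFP melanomas, and 1 MyrRSK library, MyrRSK 3, lay within the GFP range. With the mean log2 CPM of these markers as a covariate the log2 fold change of tgfbr1a was -1.44 (edgeR adjusted p = 0.205) and that of tgfbr1b -0.91 (edgeR adjusted p = 0.474). Medians of the other lists were 0.51 for fibroblast and 0.52 for macrophage and neutrophil markers, lists that share 13 copies of MFAP4, and -0.26 for endothelial, -0.42 for keratinocyte, -0.46 for erythrocyte, 0.01 for hepatocyte and -0.31 for melanocyte markers. Their part in the values of the 10 genes was not tested.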

How the data were processed

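Gene expression was analysed from 1 table of polyA RNA-seq of 12 zebrafish melanomas, grouped by the sample titles. Its whole-number counts per gene and library are as deposited by the authors, not normalized. The submitters' processing notes name STAR 2.6.1d, HTSeq 0.6.0, DESeq2 and the build Zv9. For the annotation release, strand setting and multi-mapping rule, nothing is stated in the labels. The deposited signal columns are the authors' counts divided by 1 size factor per library (largest relative spread 9.84e-10) and served for the limit on mean normalized counts. The authors' deposited log2 fold changes and p-values were used only where named; the deposited score, the authors' Wald statistic, was not printed. The lowest mean normalized count of a listed gene is 5.08.

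The test was edgeR 4.0.16 (R 4.3.3) with filterByExpr, TMM scaling and a robust quasi-likelihood fit with only the group as a term. The filter left 26866 genes, and a gene is called where its p, adjusted by Benjamini-Hochberg, is under 0.05. Standard errors are the log2 fold change over the root of F. CPM use TMM-scaled library sizes, and log2 CPM a prior count of 1; count ratios had 1 added. Exact permutation of deviations used all 518400 arrangements within groups. No 2 libraries of a group were alike (30 pairs, smallest chi-square per degree of freedom 177).

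The members and lists were chosen with earlier results of these data known. Lists were matched on the symbol. The text names all 10 members; for each list up to 4 called genes or, with none called, the 2 with the highest mean log2 CPM; and for each type I receptor gene the 5 genes with the highest r. Beyond these, the text marks genes picked with their values in view. The same 13 copies of MFAP4 stand among the 32 fibroblast and the 30 macrophage and neutrophil markers tested. Alternatives were DESeq2 1.42.0, limma-voom 3.58.1, other scalings and filters, prior counts of 0.5 and 5, the replicate number as a block, a muscle score as a covariate and libraries left out, with the genes of the main fit kept. On simulated counts (26348 genes) edgeR called 83 of 100 genes changed 8-fold, 4 of 100 changed 2-fold and 2 unchanged genes.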

Additional observations from a re-analysis of the deposited data

Results flagged for a closer look

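In 2 of 22 groups of 6 values, 1 library stood apart from the other 5 by Dixon's test. Chance flags about 1 in 20 groups where values are normally distributed, which was not tested for CPM, so that rate need not hold here. The ligand gene tgfb2 reached 7.96 CPM in MyrRSK 2, against a MyrRSK median of 3.73 CPM. The co-receptor gene tgfbr3 reached 21.6 CPM in GFP 5, against a GFP median of 3.73 CPM, and without that library its log2 fold change was 0.03 in place of -0.82. On log2 CPM, a scale used first, 0 of 20 groups had a library apart; the check on CPM, the scale printed, was chosen after that. The cause was not tested.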

How the results depend on the processing

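Over 22 alternative fits, 216 of 220 fold changes of the 10 genes stayed within their SE. The exceptions were tgfb2 and smad7 with the muscle covariate (-0.54 and 0.34), tgfbr2 without GFP 1 and GFP 2 (-0.10) and tgfbr3 without GFP 5 (0.03). The log2 fold change of tgfbr1a ran from -1.53 to -1.31 and it was called in 17 fits, not in those with the replicate block (edgeR adjusted p = 0.0809) or the muscle covariate, nor without GFP 2, MyrRSK 1 or MyrRSK 4; that of tgfbr1b ran from -1.14 to -0.91 and it was called in 1, DESeq2. The difference of the paralog ratio ran from -0.43 to -0.23 with libraries left out or other counts added. Within equal replicate numbers it was -0.32, which by arithmetic must equal the main value and so is no check.

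Counts over all genes moved more. DESeq2 called 792 higher and 760 lower, the muscle covariate left 1 and 0 (2395 at an unadjusted p under 0.05), the replicate block 6 and 0 (3165 unadjusted), and the fit without GFP 1 and GFP 2 left 23 and 7. With limma-voom 19 were lower, and with a mean count of at least 100 it was 65. Leaving out 1 library gave 1 to 104 higher and 0 to 84 lower; without GFP 2 or MyrRSK 4, where 0 were lower, 3752 and 3492 passed unadjusted. Of the 10 genes, DESeq2 called 2 lower, the muscle covariate and the replicate block 0, and leaving out 1 library 0 to 1, with 2 to 5 unadjusted throughout. No pairing by replicate number was seen, which does not exclude one: same-numbered libraries correlated by -0.15 to 0.10, 1 of 6 over 0.1, and 0 libraries correlated best with their own number.

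Of the 159 other pathway genes DESeq2 called 7 higher and 13 lower. The muscle covariate, the replicate block and the fit without GFP 1 and GFP 2 called 0 either way, upper quartile scaling 0 higher, and a mean count of at least 100 2 lower. Leaving out 1 library gave 0 to 1 higher and 0 to 3 lower, with 21 to 44 unadjusted over all fits. Matching lists also by current gene names, added after the data were seen, gave 170 genes with the same counts, 1 higher and 1 lower. Pairs of the 10 genes passing by r numbered 1 without GFP 1 and GFP 2, and 0 to 3 with 1 library left out. Among the 10 genes the sign turned for tgfb1a in 2 fits (0.10 and 0.11), tgfb2 in 7 (0.01 to 0.18) and tgfbr3 in 1 (0.03). Of the other pathway genes, only tgfb1b, emilin1b, itgav, smad1, gdf6a, acvr1l, bambib and LDLRAD4 (2 of 2) were followed over the fits. Among them the sign turned for tgfb1b (0.11) and gdf6a (-1.19) with the muscle covariate. For smad1 it turned with 1 library left out (-0.46 to 0.24, positive without GFP 3). For acvr1l it turned with the muscle covariate (-0.37), without GFP 1 and GFP 2 (-0.059) and without GFP 1, GFP 6 or MyrRSK 4 (-0.05, -0.03 and -0.14). None of these genes with a turned sign was called. The causes were not tested. In the simulation, with 6 libraries a group, edgeR called 4 of 100 genes changed 2-fold. Few genes were changed there, whereas 15.5% of all genes had an unadjusted p under 0.05 in the data. The adjusted p depends on that share, so the simulated rate need not hold for these tumours.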
